A study of Mus musculus with 12 samples.

Results

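The genes that encode the proteins of the cytosolic ribosome were measured in whole mouse retina. They were chosen by name: protein-coding genes of GENCODE M21 whose symbols start with Rpl or Rps followed by a digit, together with Rpsa, Rplp0, Rplp1 and Rplp2. Of 102 such genes, 10 Rps6k kinases and 6 names ending in -ps were left out, so that 86 of the 55487 genes in the table remained. They comprise 46 proteins of the large subunit, 31 of the small subunit and 9 related genes, among them paralogs such as Rpl3l and Rpl22l1. Fau, which also encodes a ribosomal protein, lies outside the naming rule.

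Poly-A RNA was sequenced from 5xFAD mice (strain label Tg6799) at 1 month, C57BL/6J wild-type (WT) mice at 1 month, 5xFAD mice at 6 months and WT mice at 6 months, at 3 libraries a group. The 5xFAD line models Alzheimer disease through mutant human APP, expressed in neurons from a Thy1 promoter. The labels name no transgene for the WT mice and no treatment for any group. The design asks how transcripts and retained introns differ between the genotypes at each age. The labels do not say whether libraries of a group came from separate animals, so p-values measure the spread between these libraries, which may be technical.

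A ribosome joins a small subunit, which reads the messenger RNA, to a large subunit, which forms the peptide bond. Its proteins are made in nearly equal numbers, and excess copies are degraded. Messenger RNAs for these proteins begin with a run of pyrimidines, the 5′ terminal oligopyrimidine (TOP) tract, through which mTORC1 and the binding protein Larp1 control their translation. In the retina, photoreceptors renew their outer segments daily and depend on steady protein synthesis. RNA levels of ribosomal protein genes give the supply of messenger RNA and not the rate of translation.

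Runs of pyrimidines stood near many of the start sites in the reference sequence. RefSeq (GRCm38.p6) held a window of 300 bases around the start for 66 of the 86 genes. A run of at least 8 C or T bases on the gene's strand was looked for within 50 bases on either side of the start. It was found in 53 of those 66 genes (80.3%), against 10614 of all 27025 genes with a window (39.3%). For a gene with several annotated starts, the longest run at any of them was taken. The median longest run was 10 bases in ribosomal protein genes and 7 bases in all genes. Windows of 30 bases are shown for genes that the results below turn on, with the run in capitals. Counted from the annotated start, the run began at -1 in Rps6 and -2 in Rps27, and between -37 and 28 in the other 5 genes, so the run is not shown to hold the first base of the RNA.
Rps6: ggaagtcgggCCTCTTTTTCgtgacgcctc
Rps27: tccgctttcgCTCCTTTCCggcggtgacga
Rpl11: cggaagTCTCCCTCTCTCTTCCTgttctcc
Rps24: agcggTCCTCTTTTCCTCCTCTCCagctcc
Rpl36a: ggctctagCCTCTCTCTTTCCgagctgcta
Rps15a: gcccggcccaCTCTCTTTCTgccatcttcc
Rpl7l1: gtcgaggcgggCCTCTCTaccccgcccggt

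These windows lie at chr4:86857349-86857378 (minus strand) for Rps6, chr3:90213631-90213660 (minus strand) for Rps27, chr4:136053357-136053386 (minus strand) for Rpl11 and chr14:24490711-24490740 (plus strand) for Rps24. Those of Rpl36a, Rps15a and Rpl7l1 lie at chrX:134585673-134585702 (plus strand), chr7:118116143-118116172 (minus strand) and chr17:46782670-46782699 (minus strand). Rpl7l1, which was called in none of the comparisons, had a run of 7 bases, and Rps15a, which stood apart from the other classic ribosomal proteins at 1 month, had one of 10. Within the same 50 bases on either side and on the gene's strand, the letters CTTTCC occurred in 31.8% of the ribosomal protein genes and in 5.43% of all genes, and CTCTTT, which can overlap it, in 28.8% and 4.68%. Over the whole window and both strands, CCGGAAG, the core that ETS factors bind, occurred in 39.4% and 9.93%, and TATAAA in 10.6% and 15.7%. These are matches of letters at any annotated start of a gene, chosen with the windows in view, and say nothing of binding.

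Library totals were 10.9 to 11.7 M expected counts in 5xFAD and 11.3 to 11.7 M in WT at 1 month, and 12 to 14.1 M in 5xFAD and 14.7 to 19.6 M in WT at 6 months. Rod markers summed to between 45750 and 59400 CPM, counts scaled to library size, in every library, as the retina label implies. Some properties of the libraries moved with the groups. The mean transcript length behind a count was 4214 ± 16.7 nt in 5xFAD and 3719 ± 121 nt in WT at 1 month, and 3674 ± 50.2 nt in 5xFAD and 3911 ± 183 nt in WT at 6 months (SD, n = 3 each). Pseudogenes of all kinds took 1.15% to 1.38% of the counts in the 3 WT libraries at 6 months, against 1.57% to 2.97% in the other 9 libraries, so that these 3 stand apart in the assignment of reads or in RNA. Ribosomal RNA was highest in replicates 1 and 2 of 5xFAD at 6 months (1.11% and 0.446%) and in replicate 2 of WT at 1 month (0.325%).

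Ribosomal protein genes together took the smallest share of the library in 5xFAD retinas at 1 month. Their share was 0.900%, 0.885% and 0.844% of all counts in 5xFAD at 1 month, against 1.26%, 1.48% and 1.26% in WT at 1 month. At 6 months it was 1.56%, 1.48% and 1.40% in 5xFAD, against 1.04%, 1.05% and 1.37% in WT. Neither pair of groups overlapped, and the order of the genotypes at 6 months was the opposite of that at 1 month. In bulk RNA, fewer cells of a type and less RNA per cell cannot be told apart. The share ran opposite to the mean transcript length: the 3 libraries with the lowest share had the longest mean transcript, and 81 of the 83 ribosomal protein genes that could be tested fell in the shortest group when all tested genes were put in 3 equal groups by length, with a median length of 713 nt against 2746 nt.

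**Figure D1:**
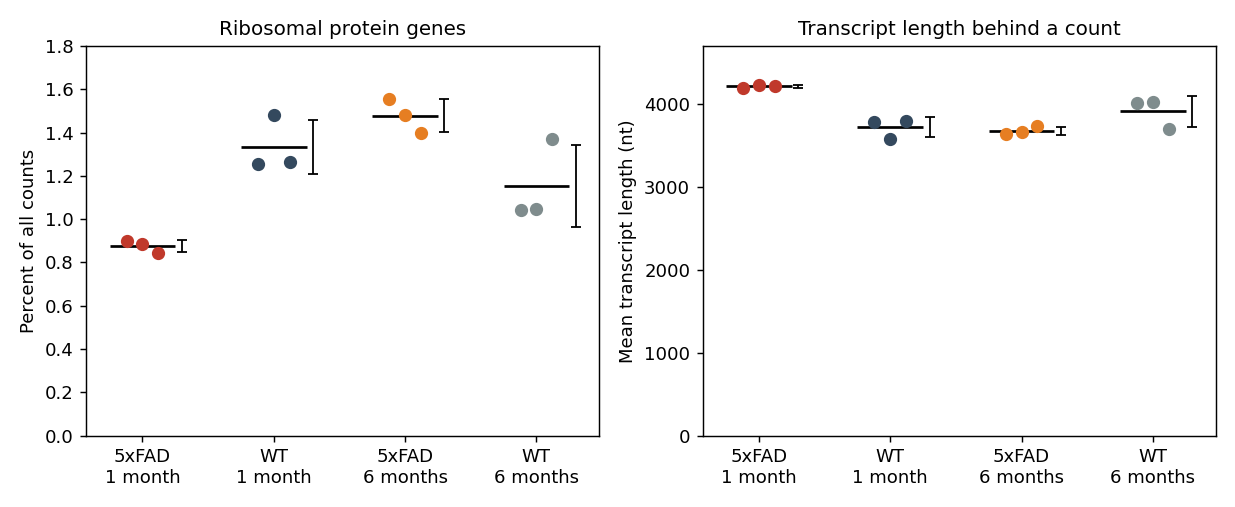
Left, share of all expected counts taken by the 86 ribosomal protein genes (percent, y axis) in each library of the 4 groups; right, mean annotated transcript length behind a count (nt). Points are libraries, horizontal lines group means and bars SD (n = 3). The 3 libraries of 5xFAD at 1 month are lowest on the left, at 0.844% to 0.900%, and highest on the right.

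Per unit of length, the 77 classic ribosomal protein genes were all abundant. Their mean levels over the 12 libraries ran from 132 TPM, the level per unit of transcript length computed here from the expected counts, for Rpl5 to 1114 TPM for Rpl13a, with a median of 432 TPM. Rplp1, a stalk protein that recruits elongation factors, had 1096 TPM, and Rps24, which takes part in the processing of ribosomal RNA, had 940 TPM. Among the 9 related genes the highest was Rpl22l1, the paralog of Rpl22, at 138 TPM, followed by Rpl36al at 125 TPM. Rpl7l1, Rps19bp1, Rps27l and Rps27rt had 35.0, 34.6, 33.0 and 14.9 TPM. The paralogs known from muscle and testis were near 0: Rpl3l had 10 counts and Rpl39l 1 count over all 12 libraries, and Rpl10l had none, so that these 3 were not tested.

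At 1 month, nearly all ribosomal protein genes were lower in 5xFAD than in WT retinas. Of the 83 tested, 75 were lower and 0 were higher at an adjusted p below 0.05 (edgeR quasi-likelihood test, Benjamini-Hochberg adjustment over all 16233 genes tested), where 8.91% of all genes tested were called lower and 10.7% higher. At an unadjusted p below 0.05, 78 were lower and 0 higher, and the Wald test of DESeq2 called 76 lower and 0 higher. The median log2 fold change was -0.60, against -0.04 for all genes tested. The decrease covered both subunits: 44 of 46 large-subunit genes and 29 of 31 small-subunit genes were lower, with medians of -0.57 and -0.62. In 78 of the 83 genes all 3 5xFAD libraries were below all 3 WT libraries, a pattern found in 18.9% of all genes tested. Log2 fold changes ran from -1.04 for Rpl31 to 0.14.

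The most clearly changed genes belonged to both subunits. Rpl11 (chr4:136028265-136053428, GRCm38), which with Rpl5 and the 5S RNA binds the p53 regulator Mdm2, had 84.1, 86.3 and 81.2 CPM in 5xFAD and 151, 184 and 147 CPM in WT retinas. Every WT library was far above every 5xFAD library, and the log2 fold change was -0.94 (SE 0.11, adjusted p = 4.91e-06). Rpl31 (chr1:39367842-39371911), a protein near the exit of the peptide tunnel, had 62.0, 77.4 and 60.8 CPM in 5xFAD and 140.2, 143 and 128 CPM in WT retinas, a log2 fold change of -1.04 (SE 0.15, adjusted p = 4.76e-05). Pseudogene copies of Rpl31 held 37.1%, 34.5% and 32.3% of the counts of gene and copies in 5xFAD and 15.0%, 31.0% and 19.9% in WT, and with them added its log2 fold change was -0.78 (adjusted p = 0.000275, edgeR). The share on copies was thus higher in each 5xFAD than in each WT library, though WT replicate 2 was near the 5xFAD range. The gene's fall was larger without the copies, and whether read assignment or RNA differed was not tested. Rpl36a, a large-subunit protein, had 26.2, 21.9 and 19.0 CPM in 5xFAD and 43.3, 53.1 and 34.3 CPM in WT retinas, a log2 fold change of -0.96 (SE 0.17, adjusted p = 4.21e-04). Rpl39, a very small protein that lines the exit tunnel, had 33.4, 33.8 and 38.9 CPM in 5xFAD and 64.6, 70.7 and 64.3 CPM in WT retinas, with a log2 fold change of -0.91 (SE 0.14, adjusted p = 8.09e-05). None of these 4 genes overlapped between the genotypes.

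In the small subunit, Rps21 had 45.8, 45.2 and 48.5 CPM in 5xFAD and 87.5, 99.4 and 74.9 CPM in WT retinas, and its log2 fold change was -0.91 (SE 0.14, adjusted p = 7.28e-05). Rps24 (chr14:24487125-24496959) had 168, 172 and 154 CPM in 5xFAD and 261, 282 and 252 CPM in WT retinas, a log2 fold change of -0.69 (SE 0.10, adjusted p = 6.00e-05). Rps6, the classic substrate of S6 kinase, had 151, 155 and 111 CPM in 5xFAD and 188, 226 and 200.1 CPM in WT retinas, a log2 fold change of -0.56 (SE 0.13, adjusted p = 0.00335). In all 3 genes each 5xFAD library was below each WT library. Rpl30, of the large subunit, was lower by a similar amount (-0.75 ± 0.11, log2 ± SE), as was Rps27a, which is made as a fusion with ubiquitin (-0.75 ± 0.12). The 3 stalk genes Rplp0, Rplp1 and Rplp2 had log2 fold changes of -0.41, -0.63 and -0.67, and Rpsa, also known as the laminin receptor, -0.57, all called lower. Rpl13a, which in human cells leaves the ribosome after interferon gamma, had -0.57, and Rpl10, which joins late in assembly, -0.56. Rps3, at the entry channel of the messenger RNA, had -0.52, and Rps18 -0.61, and these 4 were called lower as well.

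A few genes did not follow. Rps15a, chosen here after its values were seen, had 155, 132 and 147 CPM in 5xFAD and 139, 144 and 119 CPM in WT retinas, and the 2 groups overlapped. It is a small-subunit protein, and much of its count falls on a transcript of 5179 nt, described below. The other 30 genes of that subunit had no overlap between the genotypes. The remaining genes with overlap were the related Rpl7l1, Rps19bp1, Rps27l and Rps27rt. Rpl7l1, a nucleolar relative of Rpl7, had 32.6, 32.7 and 33.0 CPM in 5xFAD and 36.8, 36.1 and 31.5 CPM in WT retinas. Its relative Rpl7 had 234, 209 and 227 CPM in 5xFAD and 328, 371 and 331 CPM in WT retinas and was called lower. Of the other paralogs, Rpl22l1 and Rpl36al were called lower, as were Rpl22 and Rpl36a. Rps27l had 9.11, 6.90 and 7.45 CPM in 5xFAD and 5.38, 11.1 and 4.88 CPM in WT retinas, while Rps27 had 66.6, 64.4 and 71.6 CPM in 5xFAD and 105, 131 and 108 CPM in WT retinas and was called lower.

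**Figure D2:**
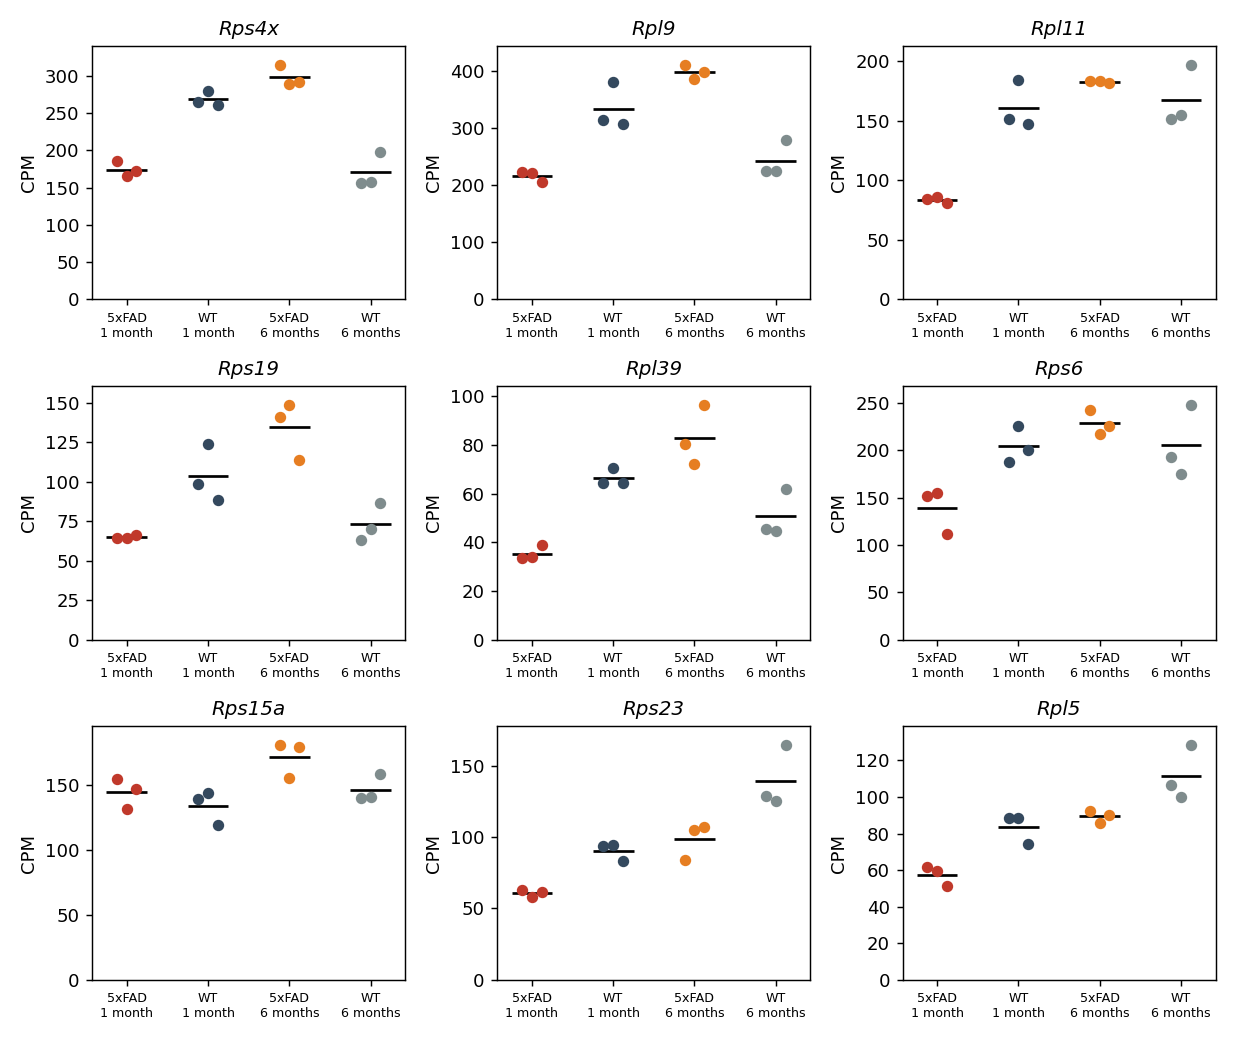
Normalised counts (CPM, y axes from 0) of 9 ribosomal protein genes in every library of the 4 groups; points are libraries and lines group means (n = 3). Rps4x, Rpl9, Rps19 and Rpl39 are lower in 5xFAD than in WT at 1 month and higher at 6 months, Rps15a overlaps between the genotypes at 1 month, and Rps23 is lower in 5xFAD at both ages, but not at 6 months once its pseudogenes are added.

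Short transcripts as a class were lower in 5xFAD at 1 month. Among the 5321 other genes of the shortest length group, 17.2% were called lower, with a median log2 fold change of -0.32, while 90.4% of the ribosomal protein genes were. When the dependence of each library on transcript length and GC content was taken out, 29 ribosomal protein genes were called lower and 0 higher, with a median of -0.25, and 81 of 83 had a negative log2 fold change. Of all genes 1154 were then called lower and 685 higher, with a median of -0.06. Markers of other cell types also moved at this age. Of the 10 pigment epithelium and choroid markers, 3 of the 7 tested were lower, with a summed level of 20.3 to 38.2 CPM in 5xFAD and 67.8 to 144 CPM in WT, and with Best1, Tyrp1, Pmel, Tyr and Mlana at 0 in some libraries of the series. The 7 endothelial markers, with Cdh5 and Tie1 at 0 in some libraries, summed to 271 to 310 CPM in 5xFAD and 171 to 210 CPM in WT, with 2 higher. The 10 lens markers, each at 0 in some library and 1 of them tested and higher, summed to 6.34 to 74.9 CPM in 5xFAD and 0.514 to 1.26 CPM in WT. The 8 cone markers summed to 1098 to 1285 CPM in 5xFAD and 1334 to 1582 CPM in WT, with 2 lower, and the 9 rod markers to 55445 to 59400 CPM in 5xFAD and 49804 to 53372 CPM in WT, with 2 higher. Of the 8 bipolar markers 2 were higher and 1 lower, of the 8 amacrine markers 2 higher, of the 7 Muller glia markers 2 higher and 1 lower, and of the 8 ganglion cell markers 1 in each direction. Their part in the result was not tested.

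At 6 months the direction was the opposite. Of 83 genes, 39 were higher and 1 was lower in 5xFAD than in WT retinas, where 2.48% of all genes tested were called higher and 3.89% lower. The median log2 fold change was 0.38, against 0.00 for all genes tested. Higher genes comprised 19 of 46 in the large subunit, 19 of 31 in the small subunit and 1 related gene, Rpl22l1. In 39 genes, 35 of them called, all 3 5xFAD libraries were above all 3 WT libraries, against 11.4% of all genes tested. Each of the 39 genes called higher at 6 months had been called lower at 1 month. So had 35 of the 43 genes not called at 6 months and the 1 called lower, so this does not set the 39 apart.

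Rps4x (chrX:102184941-102189394), the X-linked form of a small-subunit protein, had 315, 288 and 292 CPM in 5xFAD and 156, 157 and 198 CPM in WT retinas at 6 months. The groups did not overlap, and the log2 fold change was 0.81 (SE 0.10, adjusted p = 1.95e-05). Rpl9 (chr5:65388364-65391444), a protein at the base of the stalk, had 411, 386 and 399 CPM in 5xFAD and 224, 225 and 279 CPM in WT retinas, a log2 fold change of 0.71 (SE 0.10, adjusted p = 1.44e-04). Rps19, mutated in Diamond-Blackfan anaemia, had 141, 149 and 114 CPM in 5xFAD and 63.3, 70.2 and 86.2 CPM in WT retinas, a log2 fold change of 0.88 (SE 0.13, adjusted p = 3.04e-04).

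Rps20 had 139, 133 and 133 CPM in 5xFAD and 62.6, 64.2 and 81.4 CPM in WT retinas, and at 0.96 (SE 0.15, adjusted p = 6.26e-04) it had the largest log2 fold change among the genes called. Rps27 had 170.3, 129.8 and 149.8 CPM in 5xFAD and 72.2, 68.3 and 109 CPM in WT retinas, a log2 fold change of 0.85 (SE 0.15, adjusted p = 0.00147). Both are small-subunit proteins, and neither overlapped between the genotypes. Rps25, which some viral messenger RNAs need for their translation, and Rps13 had log2 fold changes of 0.63 ± 0.10 and 0.72 ± 0.12 (log2 ± SE), and Rpl39 of 0.71 ± 0.13.

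Other members of the same complexes did not pass the test at 6 months. Rpl11 had 183, 184 and 181 CPM in 5xFAD and 152, 155 and 197 CPM in WT retinas, and Rps6 had 242, 217 and 226 CPM in 5xFAD and 192, 175 and 248 CPM in WT retinas. In both genes replicate 3 of WT was above every 5xFAD library, with pseudogene copies not counted. Such copies held 25.4%, 22.1% and 26.9% of the counts of Rps6 and its copies in 5xFAD and 12.3%, 17.4% and 14.8% in WT. For Rpl11 they held 14.5%, 12.2% and 9.23% in 5xFAD and 5.98%, 6.00% and 7.79% in WT. Rpl10 and Rps3 had log2 fold changes of 0.16 ± 0.11 and 0.34 ± 0.11 (log2 ± SE) without passing, while Rpl13a and Rps18 were called higher at 0.54 ± 0.13 and 0.52 ± 0.14. Rpl41, which encodes a very short, basic peptide, had 136, 151 and 123 CPM in 5xFAD and 109.5, 114 and 154 CPM in WT retinas. Of the stalk genes, Rplp1 and Rplp2 were called higher (log2 fold changes 0.49 and 0.47), while Rplp0 had an adjusted p of 0.0619. Rps23, a protein of the decoding centre, was the one gene called lower, with 83.9, 105 and 107 CPM in 5xFAD and 129, 125 and 164 CPM in WT retinas and a log2 fold change of -0.50 (SE 0.12, adjusted p = 0.0109).

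**Figure D3:**
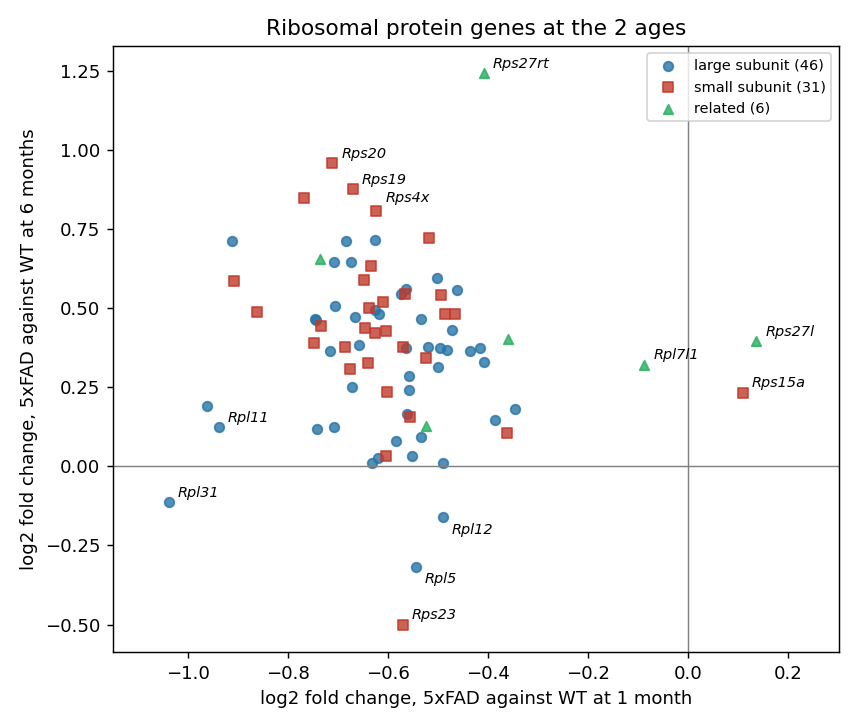
Log2 fold change of 5xFAD against WT at 1 month (x axis) and at 6 months (y axis) for the 83 tested ribosomal protein genes, by subunit. Most points lie in the upper left, lower at 1 month and higher at 6 months, and Rps15a and Rps27l lie right of 0. Without pseudogenes Rps23, Rpl5, Rpl12 and Rpl31 lie below 0 at both ages. Rps23 and Rpl5 lie above 0 at 6 months once their pseudogenes are added. Copies of Rpl12 and Rpl31 also held more in 5xFAD than in WT at 6 months (means 22.7% against 1.75% and 37.7% against 23.0%).

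The 6-month difference depended on single libraries more than the 1-month one did. Without 1 library, 15 to 55 genes were called at 6 months and 58 to 73 at 1 month. Calls over all genes in these fits are not given here, so the swing is not shown to be particular to ribosomal protein genes. In 81 of 83 genes replicate 3 of WT at 6 months was above the other 2, and its mean transcript length was 3700 nt, against 4013 and 4019 nt in them. Without it 55 genes were called, and without WT replicate 1 or 2 at 6 months 16 and 15 were. Without 5xFAD replicate 1 or 2, the pair rich in ribosomal RNA, 21 and 25 were called, and with those 2 and replicate 2 of WT at 1 month left out 13 were, all higher. Of the 5321 other genes of the shortest length group, 4.08% were called higher at this age. With the length and GC dependence taken out, 43 ribosomal protein genes were called higher and 1 lower, while 1425 of all genes were then called higher and 318 lower, against 403 and 632 without that step. That step moved the median of all genes to 0.12, against 0.00 without it, and the median of the ribosomal protein genes was then 0.33.

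Markers of retinal cells moved as well at 6 months. The 9 rod markers summed to 54682 to 58656 CPM in 5xFAD and 45750 to 49537 CPM in WT, with 2 higher and 0 lower, and none was at 0. Sums for the 8 cone markers were 1501 to 1636 CPM in 5xFAD and 1155 to 1245 CPM in WT, with 3 higher. Of the 7 Muller glia markers 1 was lower, and the sums were 3695 to 3861 CPM in 5xFAD and 4026 to 4471 CPM in WT. Of the 8 amacrine markers 2 were lower, with sums of 594 to 677 CPM in 5xFAD and 731 to 779 CPM in WT. Of the 7 endothelial markers 1 was lower, with sums of 145 to 157 CPM in 5xFAD and 195 to 236 CPM in WT. The sums of these markers did not overlap between the genotypes. Of the 8 bipolar and 4 horizontal cell markers 1 each was lower, with sums that overlapped. The part of these cell types in the ribosomal protein result was not tested.

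Within the 5xFAD genotype, 77 of 83 genes were higher at 6 months than at 1 month and 0 were lower, where 10.8% of all genes tested were called higher and 12.4% lower. At an unadjusted p below 0.05, edgeR had 78 higher and 0 lower, and DESeq2 called 77 higher and 0 lower. The median log2 fold change was 0.78, and 13 of these genes rose at least 2-fold. Rpl39 had 80.5, 72.0 and 96.5 CPM at 6 months and 33.4, 33.8 and 38.9 CPM at 1 month, a log2 fold change of 1.23 (SE 0.14, adjusted p = 2.67e-06). Rpl36a had 57.1, 45.2 and 54.7 CPM at 6 months and 26.2, 21.9 and 19.0 CPM at 1 month, a log2 fold change of 1.23 (SE 0.17, adjusted p = 3.03e-05). Rps21, Rpl11, Rps25, Rpl7 and Rpl9 had log2 fold changes of 1.21 ± 0.14, 1.12 ± 0.11, 0.93 ± 0.10, 0.83 ± 0.10 and 0.88 ± 0.10 (log2 ± SE). The 6 genes not called were Rps15a, Rpl27, Rpl7l1, Rps19bp1, Rps27l and Rps27rt. Rps15a had 181, 156 and 179.7 CPM at 6 months and 155, 132 and 147 CPM at 1 month.

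Other genes moved with age in 5xFAD retinas as well. Of the 5321 other genes of the shortest length group, 20.6% were called higher. With the length and GC dependence taken out, 67 ribosomal protein genes were called higher and 0 lower, with a median of 0.47, while 1724 of all genes were then called higher and 781 lower. All 5 red blood cell markers were lower, with sums of 20.9 to 29.3 CPM at 6 months and 81.6 to 128 CPM at 1 month and with Hbb-bt and Alas2 at 0 in some libraries of the series. Of the 7 endothelial markers 5 were lower, with sums of 145 to 157 CPM at 6 months and 271 to 310 CPM at 1 month. Rod and bipolar markers moved in both directions, with 1 higher and 2 lower of 9 and of 8, as did Muller glia markers, with 2 higher and 1 lower of 7. Amacrine markers were lower in 2 of 8. Of the 7 pigment epithelium and choroid markers tested 2 were higher, with sums of 42.5 to 76.7 CPM at 6 months and 20.3 to 38.2 CPM at 1 month. Cone markers were higher in 3 of 8. The part of these cell types in the result was not tested.

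In WT retinas fewer genes were called between the ages than in 5xFAD retinas. At 6 months 16 genes were lower and 4 higher than at 1 month, where 4.49% and 6.01% of all genes tested were called lower and higher, and the median log2 fold change was -0.20. Rps4x had 156, 157 and 198 CPM at 6 months and 265, 279 and 260.3 CPM at 1 month, a log2 fold change of -0.65 (SE 0.10, adjusted p = 1.42e-04). Rpl3, which lies near the peptidyl transferase centre, had 285, 293 and 362 CPM at 6 months and 438, 507 and 475 CPM at 1 month, a log2 fold change of -0.60 (SE 0.10, adjusted p = 5.99e-04). Rpl9 and Rpl22l1 had log2 fold changes of -0.46 ± 0.10 and -0.82 ± 0.18 (log2 ± SE). Rps27rt, called at -2.10 ± 0.62, had no more than 1.06 CPM in any WT library at 6 months. The count rested on single libraries: without WT replicate 3 at 6 months 40 genes were called, 38 of them lower, and without WT replicate 1 or 2 at 6 months 7 and 6 were, of which 4 were higher each time. Without WT replicate 2 at 1 month 8 were called, 4 in each direction. Calls over all genes in these fits are not given here. Of the other genes of the shortest length group 6.09% were called lower, and with the length and GC dependence taken out 16 ribosomal protein genes were lower and 5 higher. Red blood cell markers were lower with age in WT too, in 4 of 5. Their sums were 12.1 to 16.6 CPM at 6 months and 66.7 to 155 CPM at 1 month. Of the 7 Muller glia markers 4 were higher, at sums of 4026 to 4471 CPM against 3349 to 3606 CPM at 1 month. Of the 8 cone markers 2 were lower, at sums of 1155 to 1245 CPM against 1334 to 1582 CPM at 1 month. Of the 9 rod markers 3 were higher and 2 lower, and of the 8 amacrine markers 1 in each direction. Of the 7 endothelial markers 1 was higher, and of the 8 bipolar markers 1 lower. The part of these cell types in the result was not tested.

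The 4 genes called higher with age in WT were Rps23, Rpl12, Rpl27a and Rpl5. Rps23 had 129, 125 and 164 CPM at 6 months and 93.4, 94.1 and 83.2 CPM at 1 month, a log2 fold change of 0.63 (SE 0.12, adjusted p = 0.00135). Rpl12 had 107, 112 and 141 CPM at 6 months and 73.1, 92.4 and 77.4 CPM at 1 month, a log2 fold change of 0.57 (SE 0.12, adjusted p = 0.00482). Rpl27a and Rpl5 had log2 fold changes of 0.52 ± 0.13 and 0.41 ± 0.11 (log2 ± SE). All 4 have pseudogene copies, whose counts are described next.

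The test of the difference between the 2 ages, the interaction of genotype and age, called 71 of 83 genes in the positive direction and 0 in the negative, where 11.7% and 13.3% of all genes tested were called positive and negative. At an unadjusted p below 0.05, edgeR had 75 positive and 0 negative, and DESeq2 called 71 positive and 0 negative. The median interaction was 0.98 on the log2 scale, against 0.06 for all genes tested. Rps4x, with 1.43 (SE 0.14, adjusted p = 1.91e-07), had the smallest p, and Rps20, with 1.67 (SE 0.21, adjusted p = 8.61e-06), the largest value among the genes called. With the length and GC dependence taken out, 50 genes were positive and 0 negative, with a median of 0.56. Of all genes 2452 were then positive and 941 negative, with a median of 0.18 in place of 0.06.

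Ribosomal protein genes have many processed pseudogenes in the mouse genome, and reads that fit a gene and a copy equally well can be assigned to either. By sequence, 1147 annotated pseudogenes matched 81 of the 86 genes, and 427 of these copies had a count. The share of the gene and copy counts that fell on copies was 6.92 ± 0.176% in 5xFAD and 6.63 ± 0.149% in WT at 1 month, and 6.80 ± 0.462% in 5xFAD and 4.12 ± 0.114% in WT at 6 months (SD, n = 3 each). The 3 WT libraries at 6 months were below all other 9. These are the libraries in which pseudogenes of all kinds took less of the counts. Whether the assignment of reads or the RNA differed cannot be told apart from the tables.

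A gap between WT libraries at 6 months and the others was found in genes that were higher with age in WT, though it was small in Rpl27a. For Rps23 the copies held 58.9%, 42.7% and 37.3% in 5xFAD and 13.1%, 14.7% and 16.0% in WT at 6 months, and 43.9% to 50.4% in WT at 1 month. For Rpl12 they held 25.4%, 26.3% and 16.6% in 5xFAD and 1.49%, 1.97% and 1.78% in WT at 6 months. Genes that were not higher with age in WT had such a gap as well. For Rpl28 they held 29.4%, 12.7% and 23.5% in 5xFAD and 0.671%, 0.591% and 0.512% in WT at 6 months. For Rpl10a they held 28.5%, 23.9% and 12% in 5xFAD and 3.89%, 5.64% and 4.46% in WT. Rpl5 and Rpl27a were again among the genes higher with age in WT. For Rpl5, whose copies held more counts than the gene itself in the other 9 libraries, the shares at 6 months were 67.3% to 71.1% in 5xFAD and 43.6% to 44.5% in WT. For Rpl27a they were 37.7%, 37.2% and 38.7% in 5xFAD and 34.2%, 32.0% and 32.1% in WT at 6 months. In 14 of 81 genes all 3 WT libraries at 6 months were below the other 9.

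**Figure D4:**
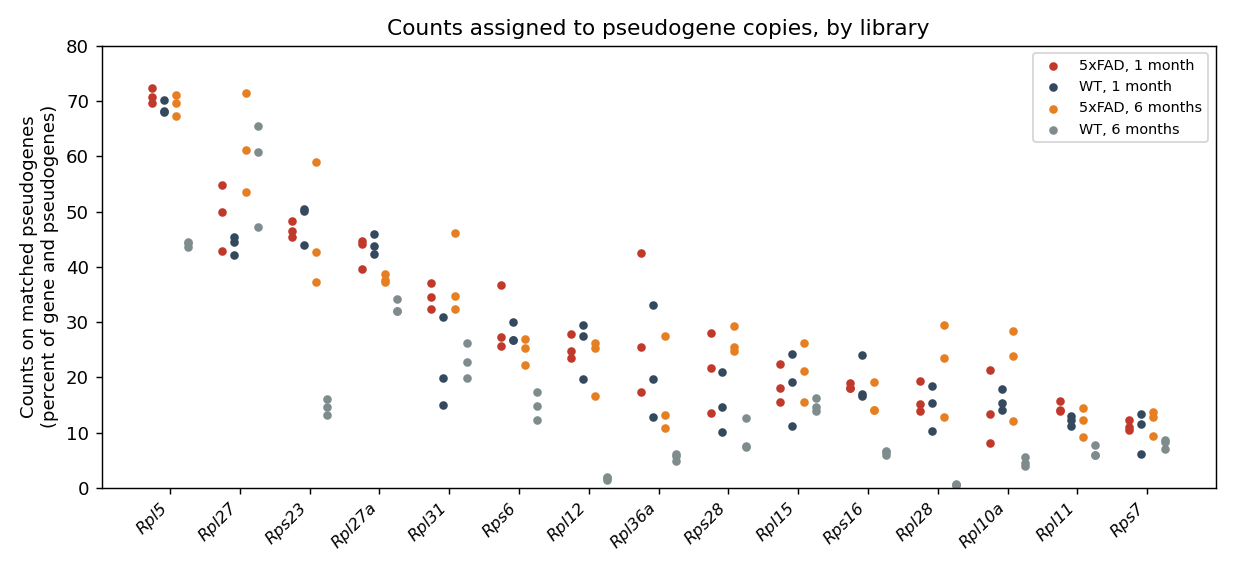
Percent of the counts of a ribosomal protein gene and its matched pseudogenes that were assigned to the pseudogenes (y axis), in every library, for the 15 genes with a mean of at least 10% in the 9 libraries other than WT at 6 months. Points are libraries, coloured by group. WT at 6 months is lowest for Rpl5, Rps23, Rpl12 and Rpl28, at 0.512% to 0.671% for Rpl28.

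When each gene was summed with its matched pseudogenes, the exceptions in WT with age were gone: 0 genes were higher and 15 lower. Rps23 at 6 months had a log2 fold change of 0.17 (adjusted p = 0.422) in place of -0.50, and Rps23 with age in WT -0.06 (adjusted p = 0.797). Rpl5 with age in WT turned to -0.40 (adjusted p = 0.0184), and Rpl5 at 6 months, not called by itself, was higher in 5xFAD at 0.53 (adjusted p = 0.0041). The 1-month result stood at 76 lower and 0 higher, the 6-month one at 38 higher and 0 lower, and the interaction at 74 positive. Calls for Rps23, Rpl5, Rpl12 and Rpl27a that involve WT at 6 months are therefore uncertain. Levels of other genes whose copies held less in WT at 6 months, such as Rps6 and Rpl11, carry the same limit.

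**Figure D5:**
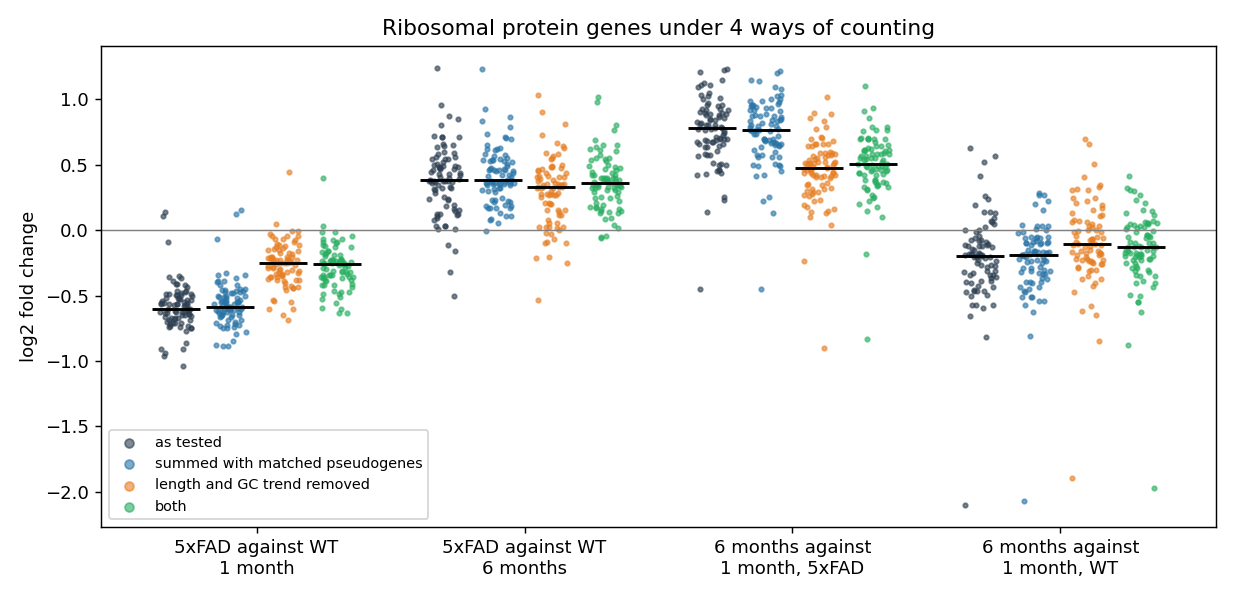
Log2 fold changes of the tested ribosomal protein genes (y axis) in 4 comparisons under 4 ways of counting; each point is a gene and each black line a median. The median at 1 month is -0.60 as tested and -0.25 with the length and GC dependence taken out, and it stays above 0 at 6 months under all 4.

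Transcripts gave fewer calls than genes. Of 330 tested transcripts of 83 genes, 31 were lower and 1 was higher in 5xFAD than in WT at 1 month, where 0.922% of all transcripts tested were called lower and 1.6% higher (edgeR, adjusted over 45326 transcripts). At 6 months 3 were higher and 0 lower, where 0.165% were called higher and 0.322% lower. At 1 month 29 of the 31 lower transcripts were protein-coding, out of 173 of that class, whose median log2 fold change was -0.59. Retained-intron transcripts of the same genes, 105 in number, had 0 calls (10 at an unadjusted p below 0.05) and a median of -0.03. Rpl11-201, of 833 nt, had 48.6, 43.8 and 35.6 CPM in 5xFAD and 74.1, 93.7 and 86.5 CPM in WT at 1 month, a log2 fold change of -0.99 (SE 0.16, adjusted p = 0.0141). Rpl31-202, of 487 nt, had 21.6, 30.8 and 24.6 CPM in 5xFAD and 64.9, 62.8 and 63.3 CPM in WT, a log2 fold change of -1.31 (SE 0.22, adjusted p = 0.0157). Neither overlapped between the genotypes. Rps4x-201, Rps21-201 and Rplp0-201 followed, with log2 fold changes of -0.61 (SE 0.10, adjusted p = 0.0149), -0.91 (SE 0.15, adjusted p = 0.0168) and -0.58 (SE 0.10, adjusted p = 0.0175).

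Rps15a divided mainly into a long and a short transcript with differences of opposite sign at 1 month, of which that of the long one passed the test. Rps15a-204, of 5179 nt, had 104, 96.6 and 108 CPM in 5xFAD and 75.9, 52.9 and 66.2 CPM in WT at 1 month. It was the one transcript called higher, with a log2 fold change of 0.66 (SE 0.12, adjusted p = 0.0221), and it was chosen here after its values were seen. Rps15a-201, of 640 nt, had 47.9, 32.9 and 34.2 CPM in 5xFAD and 60.1, 79.4 and 51.5 CPM in WT at 1 month, with no overlap but an adjusted p of 0.205. At 6 months Rps15a-204 had 87.2, 83.1 and 88.5 CPM in 5xFAD and 95.5, 102 and 94.2 CPM in WT. Rps15a-201 then had 80.7, 57.9 and 79.0 CPM in 5xFAD and 34.8, 34.2 and 61.3 CPM in WT. The gene sum thus joined the 2 transcripts into a level that overlapped between the genotypes at 1 month. Among all genes tested, the longest length group had median log2 fold changes of 0.25 at 1 month and -0.13 at 6 months. The shortest length group had -0.32 and 0.14. The part of transcript length in the Rps15a values was not tested.

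Rps24 is known for splicing of small exons near its 3′ end. Rps24-201, with 5 exons, held 51.5 ± 1.83% of the gene's counts in 5xFAD and 55.0 ± 6.84% in WT at 1 month, and 42.4 ± 6.21% in 5xFAD and 50.9 ± 2.86% in WT at 6 months (SD, n = 3 each). Rps24-202, with 6 exons, held 36.1 ± 7.23% in 5xFAD and 24 ± 1.29% in WT at 6 months. Rps24-205, with 7 exons, had 11.9, 13.8 and 10.8 CPM in 5xFAD and 2.94, 3.48 and 2.61 CPM in WT at 6 months, a log2 fold change of 2.02 (SE 0.33, adjusted p = 0.0346). In WT it had 18.6, 20.3 and 10.0 CPM at 1 month, and the log2 fold change with age was -2.44 (SE 0.34, adjusted p = 0.0123). The low level was that of the 3 WT libraries at 6 months, the same libraries that stand apart in pseudogene counts, and the part of read assignment in it was not tested. Rps4x-201 was also called at 6 months, at 0.75 (SE 0.10, adjusted p = 0.0138). Between the ages, 57 transcripts were higher at 6 months in 5xFAD, where 1.16% of all transcripts tested were, and 5 were lower in WT, where 0.364% were. The interaction called 58 positive and 1, Rps15a-204, negative, where 2.08% and 3.97% of all transcripts tested were called. Transcript calls depended on single libraries: without 1 library, 0 to 23 were called at 1 month and 0 to 15 at 6 months. Calls over all transcripts in these fits are not given here.

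Retained-intron transcripts held a small part of the counts of these genes. Their share was 5.38 ± 0.20% in 5xFAD and 4.65 ± 0.29% in WT at 1 month, and 4.46 ± 0.52% in 5xFAD and 5.53 ± 0.26% in WT at 6 months (SD, n = 3 each). Of 55 genes tested, 0 had a called difference in edgeR at either age, where 2.89% of all 4769 genes tested were called at 1 month and 0.189% at 6 months. At an unadjusted p below 0.05 there were 7 at 1 month, all higher in 5xFAD, and 12 at 6 months, all lower, while 934 and 634 of the 4769 genes had such a p in either direction. The 7 at 1 month were thus a smaller share of these genes than of all genes tested. The 12 at 6 months were a larger share, though the counts over all genes cover both directions. The log2 odds were positive in 43 of 55 genes at 1 month, with a median of 0.66 against 0.36 over all genes tested, and negative in 43 of 55 at 6 months, with a median of -0.59 against -0.29.

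The smallest p at 1 month was that of Rps2, a protein at the messenger RNA entry, whose retained-intron share was 4.90%, 4.55% and 4.05% in 5xFAD and 2.54%, 1.70% and 0.882% in WT (adjusted p = 0.0581, edgeR). At 6 months it was that of Rps14, with 0.314%, 0.291% and 0.0911% in 5xFAD and 1.86%, 1.21% and 1.69% in WT (adjusted p = 0.0631, edgeR). Neither gene overlapped between the genotypes, and neither passed the test. Rpl5 had retained-intron shares of 38.5%, 29.1% and 34.3% in 5xFAD and 19.5%, 25.5% and 18.9% in WT at 1 month, also without passing.

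Genes that work with the ribosome were followed beside it. Fau and the ribosome-bound scaffold Rack1, which lie outside the naming rule, were lower in 5xFAD at 1 month. Fau had 90.8 ± 5.07 CPM in 5xFAD and 151 ± 23.7 CPM in WT (SD, n = 3 each), a log2 fold change of -0.73 (SE 0.15, adjusted p = 0.00164). Of 15 other messenger RNAs known for a TOP tract, 8 were lower and 0 higher at 1 month, and 5 were higher and 0 lower at 6 months, with medians of -0.27 and 0.29. Of all genes tested, as above, 8.91% were lower and 10.7% higher at 1 month, and 2.48% were higher and 3.89% lower at 6 months, with medians of -0.04 and 0.00. Tpt1, which encodes translationally controlled tumour protein, had 251 ± 10.5 CPM in 5xFAD and 384 ± 25 CPM in WT at 1 month, a log2 fold change of -0.61 (SE 0.10, adjusted p = 1.43e-04). Btf3, a factor bound to nascent chains, had 63.2 ± 6.22 CPM in 5xFAD and 107 ± 14.8 CPM in WT at 1 month, a log2 fold change of -0.76 (SE 0.12, adjusted p = 1.49e-04). Eef1a1, the main elongation factor for transfer RNA delivery, had 1712 ± 80.6 CPM in 5xFAD and 1194 ± 152 CPM in WT at 6 months, a log2 fold change of 0.52 (SE 0.09, adjusted p = 8.68e-04).

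Of 45 genes of ribosome biogenesis, 5 were lower and 2 higher at 1 month, and 1 was higher and 0 lower at 6 months, with medians of -0.16 and 0.03. These counts were near or below the shares of all genes given above. Ltv1, which helps export the small subunit, had 16.1 ± 3.99 CPM in 5xFAD and 28.5 ± 2.66 CPM in WT at 1 month, a log2 fold change of -0.83 (SE 0.18, adjusted p = 0.00256). Among 14 genes of mTORC1 and TOP regulation, 4 were higher and 2 lower at 1 month, and 1 was lower and 0 higher at 6 months, with medians of 0.16 and -0.05, beside the same shares of all genes. Deptor, an inhibitor of mTOR, had 27.4 ± 4.02 CPM in 5xFAD and 14.4 ± 2.12 CPM in WT at 1 month, a log2 fold change of 0.93 (SE 0.17, adjusted p = 4.56e-04). Mtor, the kinase itself, had 163 ± 9.02 CPM in 5xFAD and 123 ± 13.5 CPM in WT at 1 month, a log2 fold change of 0.41 (SE 0.10, adjusted p = 0.0068). Larp1, the TOP-binding repressor, was the gene called lower at 6 months, with a log2 fold change of -0.33 (SE 0.10, adjusted p = 0.0479, edgeR). It had 82.4 ± 6.79 CPM in 5xFAD and 104 ± 7.31 CPM in WT. Of the 5402 genes in the longest length group, 1460 were called higher and 132 lower at 1 month. At 6 months 40 of them were called higher and 499 lower. The part of transcript length in the values of these regulators was not tested.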

How the data were processed

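Poly-A RNA of whole retina was sequenced from an unstranded TruSeq RNA v2 preparation, per the labels' protocols. The authors deposited unnormalised expected counts for genes and for transcripts. Their tools, per the submitters' processing notes, include RSEM 1.3.3, STAR 2.7.1a, DESeq2 1.32.0 and Trim Galore 0.6.6, with build GRCm38.p6. Of 55487 genes and 142699 transcripts, 55227 and 141469 were matched by identifier to GENCODE M21 (GRCm38), which gave symbols, lengths and transcript classes.

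Expected counts were rounded and fitted over all 12 libraries with edgeR 4.0.16 in R 4.3.3 (quasi-likelihood, robust, TMM, filterByExpr by group, 8 residual degrees of freedom), and 16233 genes and 45326 transcripts were tested. Calls were made where the adjusted p (Benjamini-Hochberg) was below 0.05. CPM values are TMM-normalised. For the retained-intron share, the counts of a gene in retained-intron transcripts and in its other transcripts entered as paired columns, with a minimum mean of 10 in both. Pseudogene copies were matched with BLAST 2.17.0 (at least 90% identity over at least 50% of the shorter sequence). Length and GC trends were splines with 4 degrees of freedom. The gene, transcript and retained-intron fits and the removal of a length trend were tested on simulated data, and the other steps were not. Tables and figures were made with matplotlib 3.10.9 and pandas 2.3.3 under Python 3.11.15.

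The members and the gene lists were chosen with earlier results of these data known. Per comparison, the named genes are a set of fixed members, the 6 smallest p, the 3 largest called changes up and down (mean 1 CPM or more), and, where 5 or fewer, called members against the majority direction and uncalled members of at least 10 CPM; per list up to 3 with the smallest p, for transcripts and retained-intron shares the 5 smallest p. Some results that this rule made eligible are left out here. Expected counts of near-identical genes and copies are estimates, and overlapping genes cannot be told apart without strand. Replicate libraries differed by 4.05 to 26.7 in chi-square per degree of freedom, so none is a copy of another. Alternatives were DESeq2 1.42.0 size factors and Wald test, library totals, TMM without the members, other filters, the replicate block, only the libraries compared, removal of length and GC trends, libraries rich in ribosomal RNA left out, pseudogenes left out or summed with the members, and each library left out.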

Additional observations from a re-analysis of the deposited data

Results flagged for a closer look

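The difference between 5xFAD and WT changed with age in 71 of 83 ribosomal protein genes, all in the positive direction. The test was that of the interaction of genotype and age in edgeR, which called 11.7% of all genes tested positive and 13.3% negative. The genes with the smallest p or the largest interaction on the log2 scale were Rps20 at 1.67, Rpl39 at 1.62, Rps27 at 1.62, Rps19 at 1.55, Rps4x at 1.43, Rpl9 at 1.34, Rps25 at 1.27 and Rpl7 at 1.10. In CPM, each of these 8 was lower in all 3 5xFAD libraries than in all 3 WT libraries at 1 month. At 6 months each was higher in all 3 5xFAD libraries than in all 3 WT libraries. Per unit of length, Rps20 overlapped at 1 month, with 145 to 200 TPM in 5xFAD and 168 to 295 TPM in WT. Mean transcript length also differed between the genotypes in opposite directions at the 2 ages. With the length and GC dependence taken out, 50 genes were called in the interaction. Their set of 83 then had a median of 0.56, against 0.18 for all genes tested.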

How the results depend on the processing

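Under the alternatives tried, 2093 of 2245 values of named genes kept their direction and their side of the threshold, 144 lost the call and 8 reversed. The reversals were Rps23 and Rpl5 summed with their pseudogenes. Rps23 at 6 months came to 0.18 with pseudogenes taken by name, 0.17 with those matched by sequence and 0.16 with the length and GC dependence taken out too, and Rps23 with age in WT to -0.088, -0.063 and -0.053. Rpl5 with age in WT came to -0.40 with matched pseudogenes and -0.49 with that dependence taken out too. That combination was chosen after seeing the data. Numbers of genes called moved most at 1 month with that dependence taken out (29, and 36 with pseudogenes added), at 6 months from the 6 libraries compared alone (21) and with the 3 ribosomal RNA-rich libraries left out (13, and 13 with age in WT). Without 1 library, 58 to 73 genes were called at 1 month, 15 to 55 at 6 months, 6 to 40 with age in WT, 73 to 76 with age in 5xFAD and 64 to 74 for the interaction. With age in WT the majority turned to higher without WT replicate 1 (7 called) or 2 (6 called) at 6 months. Transcripts called without 1 library were 0 to 23 at 1 month, 0 to 15 at 6 months, 0 to 11 with age in WT, 21 to 56 with age in 5xFAD and 33 to 67 for the interaction; at 6 months there were 5 without a filter and 5 with library totals. Retained-intron shares called were 0 to 1 at 1 month and 0 to 2 at 6 months without 1 library, and 1 at 1 month with a minimum of 50 counts. For the fits without 1 library, calls over all genes and transcripts are not given beside these counts. The swings are thus not shown to be particular to ribosomal protein genes. The causes were not tested.

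Replicate numbers did not pair the samples (correlation of deviations -0.09 to 0.06). With the replicate number as a block, 74 genes were called at 1 month, 31 at 6 months, 20 with age in WT, 77 with age in 5xFAD and 70 for the interaction, and 5, 0, 1, 31 and 37 transcripts in the same order.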
